A study of Rattus norvegicus with 32 samples.

Results

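Interneuron identity genes were described in the hippocampus of adult rats: Gad1, Gad2, Slc32a1, Pvalb, Calb2, Lhx6, Reln and Erbb4. These 8 of the 32883 genes in the deposited count tables were taken by symbol, and each symbol matched a single gene. The libraries came from Sprague-Dawley rats of 65 days, in 4 diet groups of 4 rats for each sex. IS rats (control) were iron-sufficient throughout, and ISch rats were iron-sufficient rats whose dams received extra choline in mid-gestation. FID rats, labelled as iron deficient, were born to dams on a low-iron diet from early gestation to the end of the first postnatal week, and FIDch rats had this diet together with the prenatal choline. All rats ate iron-sufficient food afterwards, so that FID and FIDch rats were formerly iron-deficient at the time of tissue collection. Male libraries were sequenced in batch I and female libraries in batch II, and a difference between the sexes cannot be told apart from one between the batches. The study's methods describe a single male per litter, and they do not describe the female litters.

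Interneurons are the inhibitory cells of the hippocampus. They make GABA from glutamate with the 2 glutamate decarboxylases encoded by Gad1 and Gad2, and the vesicular GABA transporter encoded by Slc32a1 loads it into synaptic vesicles. Classes of interneurons are told apart by calcium-binding proteins such as parvalbumin (Pvalb), found in fast-spiking basket cells, and calretinin (Calb2), and by the fate of their precursors, for which Lhx6 is a transcription factor of the medial ganglionic eminence. Reelin (Reln) is a secreted glycoprotein made in the adult by a subset of interneurons and also by Cajal-Retzius cells. Erbb4 encodes a neuregulin receptor of interneurons. Whole hippocampus was sequenced, and fewer cells of a type cannot be told apart from less RNA per cell.

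The upstream sequences of Slc32a1 and Gad2 are shown because their values for female FIDch against FID rats had opposite signs (below 0 for Slc32a1 and above 0 for Gad2). Gad2 did not meet the criterion given below in that comparison, and Lhx6, which met it, is not shown. Each sequence shown is the 250 bases before the gene's start in RefSeq (build GRCr8), written 5′ to 3′ on the coding strand. Capitals mark the letters GGGCGG (the GC box), TATAAA (the TATA box) and CCAAT on either strand. The Gad2 sequence is at chr17:89671468-89671717 on the plus strand and the Slc32a1 sequence at chr3:167686995-167687244 on the plus strand.
Gad2: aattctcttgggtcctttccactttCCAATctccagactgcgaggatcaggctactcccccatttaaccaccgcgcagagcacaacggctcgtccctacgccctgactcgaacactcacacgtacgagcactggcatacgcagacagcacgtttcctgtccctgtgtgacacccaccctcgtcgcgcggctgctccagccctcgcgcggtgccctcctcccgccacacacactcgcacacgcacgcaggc
Slc32a1: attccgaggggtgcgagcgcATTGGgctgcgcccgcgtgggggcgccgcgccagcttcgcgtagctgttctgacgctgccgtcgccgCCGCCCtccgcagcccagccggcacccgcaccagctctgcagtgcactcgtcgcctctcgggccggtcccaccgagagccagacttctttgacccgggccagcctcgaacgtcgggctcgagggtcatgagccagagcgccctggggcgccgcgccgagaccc
Slc32a1 had 34 CG dinucleotides in this window and Gad2 had 22, against a median of 5 over 33469 rat promoters of the same length. Gad2 held 1 CCAAT and no GC box, and Slc32a1 held 1 CCAAT and 1 GC box, both written on the opposite strand. No 2 of these matches overlapped. Over all promoters, 34% held CCAAT, 30.5% held GGGCGG and 12.9% held TATAAA. RefSeq matched 7 of the 8 members, and among them Reln had the most CG dinucleotides (41) and Lhx6 the fewest (14).

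Between 3515806 and 9517503 reads per male library and between 18439999 and 26616318 per female library were counted on genes. Levels are given as CPM, counts relative to the library total scaled with edgeR's TMM factors within each sex, and are not corrected for gene length, so that they compare libraries and not genes. Counts of Lhx6 were 19 to 47 in males and 36 to 97 in females, and those of Calb2 were 44 to 154 in males, while Gad2 had at least 1096 counts in every library. Called genes met the criterion of the study (log2 fold change beyond 0.2 in either direction and unadjusted p under 0.05) in edgeR's quasi-likelihood test, and the Benjamini-Hochberg adjusted p over all genes tested is given beside it. All 8 members passed the expression filter in every comparison. Counts of called members in alternative fits are given without the share of all genes called in those fits. Overlap between groups is described without its share over all genes, which was not counted. Some libraries stood apart over all genes. The root mean square (RMS) difference of log2 CPM from the mean of the sex was 0.344 in male IS replicate 1 and 0.337 in male FIDch replicate 2, against 0.228 to 0.293 in the other males, and 0.361 in female FIDch replicate 4, against 0.278 to 0.333 in the other females. Female FIDch replicate 4 differed from the other libraries of its group by a chi-square per gene of 22.4 to 25.2, where no other pair of replicates exceeded 14.3. Values without these libraries are given beside the results that change. Names of the female choline libraries fell in 2 numbered series. High numbers belonged to ISch replicate 1 and FIDch replicates 1, 2 and 3. Low numbers belonged to ISch replicates 2, 3 and 4 and FIDch replicate 4. On the second principal component of female log2 CPM the former lay at -25.4 to -14.4 and the latter at 4.35 to 23.5. The series nearly coincided with FIDch against ISch, and its part in the results was not tested. Markers of the dentate gyrus, CA1 and CA2 with CA3 were present in all 32 libraries. Choroid plexus markers summed to 404 CPM in male FID replicate 4 and to at most 20.8 CPM in every other library.

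**Figure D1:**
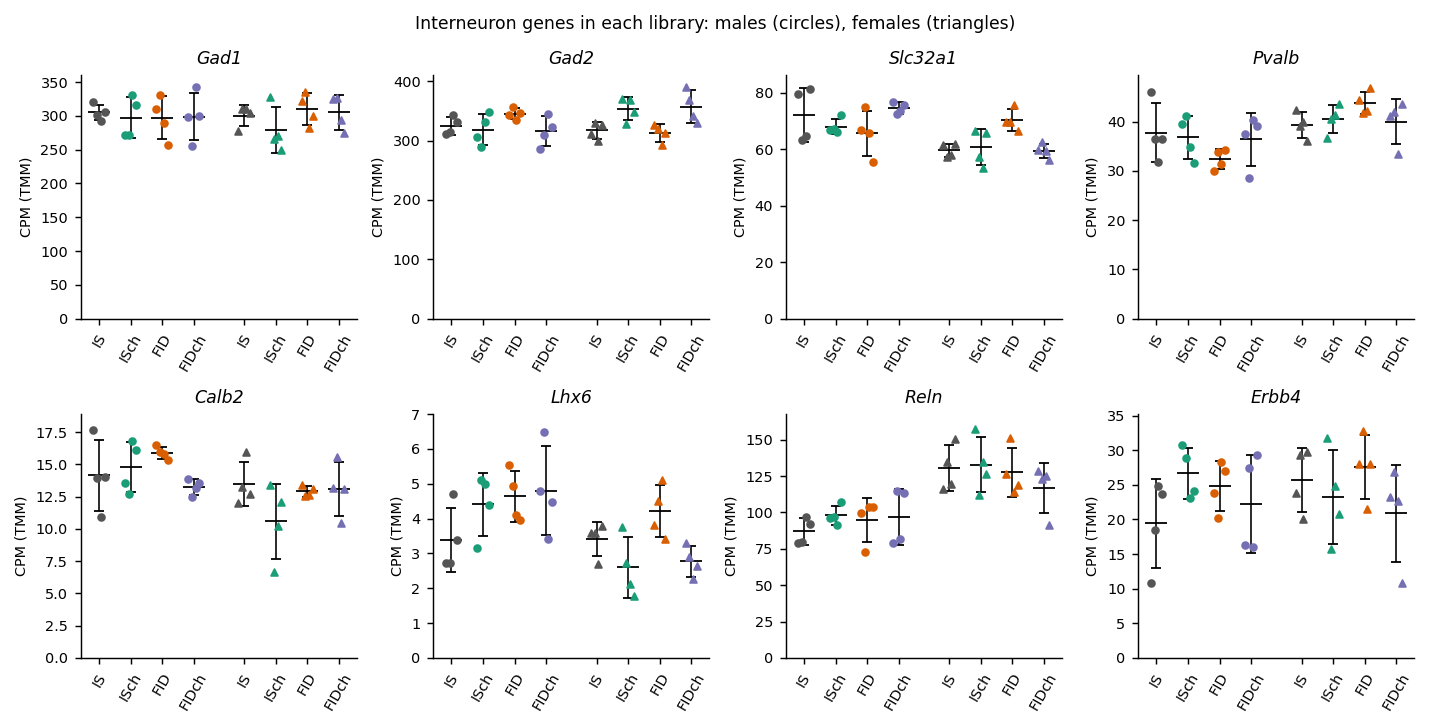
CPM of each member (vertical axes, from 0) in every library, by diet group, with males as circles and females as triangles; horizontal bars are group means and vertical bars are SD (n = 4). Female Slc32a1 was highest in FID and female Gad2 was higher in ISch and FIDch, while Lhx6 and Erbb4 scattered most within groups.

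The members differed in how much they scattered. Within diet groups the coefficient of variation was 8.61% for Gad1, 5.86% for Gad2, 6.65% for Slc32a1 and 7.80% for Pvalb in females, and 9.57%, 6.22%, 9.17% and 13.0% for the same genes in males. For Erbb4 it was 24.1% in females and 23.3% in males, and for Lhx6 20.4% and 22.7%. Calb2 and Reln lay between in females, with 16.1% and 13.5%, and had 11.9% and 14.3% in males, on either side of Pvalb. The highest library of a sex exceeded the lowest by 1.34 times for Gad1 in both sexes, and by 3.04 times for Erbb4 in females.

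Slc32a1 was the member with the clearest differences, and these were in females. The 4 female IS libraries had 61.4, 57.2, 57.9 and 61.9 CPM and the 4 ISch libraries had 66.5, 57.4, 53.3 and 65.7 CPM. Female FID libraries had 69.6, 69.7, 75.8 and 66.5 CPM, and FIDch libraries had 59.7, 62.6, 59.2 and 56.1 CPM. Every FID library stood above every library of the other groups, by very little over the highest ISch library. The order of the female means was FID (70.4 ± 3.91 CPM, SD, n = 4), ISch (60.7 ± 6.42), IS (59.6 ± 2.37) and FIDch (59.4 ± 2.65), in which the last 3 lay within their spread. In males the means were 74.7 ± 2.01 CPM in FIDch, 72.2 ± 9.52 in IS, 68.1 ± 2.77 in ISch and 65.7 ± 7.96 in FID. All male groups overlapped apart from FIDch and ISch, where the lowest FIDch library (72.3 CPM) lay just above the highest ISch library (72.1 CPM).

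Compared to the IS control group, Slc32a1 rose in female FID rats by 0.24 (SE 0.050) on the log2 scale, with an adjusted p of 0.0782 in edgeR's quasi-likelihood test. It was the only member of 8 called in this comparison, in which 6.47% of 14632 genes were called. Without FID replicate 4, Lhx6 was called as well (2 members). Slc32a1 kept the criterion in 13 alternative fits, with log2 fold changes from 0.20 to 0.27 and adjusted p from 0.00665 to 0.295, and was not called with the adjusted p as the criterion. Pvalb was 0.15 (SE 0.058) higher, below the limit on the fold change, with an unadjusted p of 0.0209 and an adjusted p of 0.352 in edgeR. Its female FID libraries had 44.4, 41.7, 42.2 and 46.7 CPM against 42.4, 39.1, 39.9 and 36.1 CPM in IS, and the highest IS library stood above 2 of the FID libraries.

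Between female FIDch and FID rats the differences of Slc32a1 and Lhx6 had the opposite sign. Both this comparison and FID vs. IS hold the same 4 FID libraries, so that their signs are not independent. From FID to FIDch, Slc32a1 fell by 0.25 (SE 0.055) on the log2 scale, with an adjusted p of 0.0425 in edgeR, the only member under 0.05 after adjustment in any of the 15 comparisons (2.28% of all genes here). The adjusted p ranged from 0.00681 to 0.126 over 13 alternatives. Without single libraries it was 0.0382 without FIDch replicate 4 and between 0.0593 and 0.126 without any of the other 7. Lhx6 fell by 0.60 (SE 0.18), with an adjusted p of 0.109 in edgeR. Its FID libraries had 3.81, 4.50, 5.11 and 3.43 CPM and its FIDch libraries had 3.30, 2.89, 2.26 and 2.64 CPM. The groups did not overlap, which was not counted over all genes. Slc32a1 and Lhx6 were the 2 members called of 8, both lower, where 12.7% of 14680 genes were called and 7.07% were lower. Of all genes, 18% had an unadjusted p under 0.05 in edgeR here. Both members kept the criterion in 13 alternative fits, while Lhx6 was not called with the adjusted p as the criterion. Of the other members, 5 had log2 fold changes between -0.40 (Erbb4) and 0.01 (Calb2) whose unadjusted p was over 0.05, and the median over the 8 members was -0.13, against -0.0013 over all genes tested.

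The summed thalamus and Cajal-Retzius marker lists were highest in female FID rats, as were Slc32a1 and Lhx6. The summed level of the thalamus list was 60.6 to 71.1 CPM in FID, 49.5 to 58.8 in IS, 53.1 to 67.5 in ISch and 49.7 to 53.9 in FIDch. Of its 8 tested genes, 5 had a log2 fold change above 0 in FID vs. IS and 2 in FIDch vs. FID. Among them 1 was called higher in FID than in IS and 2 were called lower in FIDch than in FID. Slc17a6, a vesicular glutamate transporter abundant in thalamus, had a mean of 24.3 CPM in FID, 15 in IS, 15.3 in ISch and 14.9 in FIDch, while Tcf7l2, a transcription factor of thalamus, had 6.35, 6.66, 6.33 and 6.15 CPM. The thalamic gene Shox2 had at most 4 counts in any female library. The Cajal-Retzius list summed to 55.5 to 63.9 CPM in FID, 51.0 to 54.6 in IS, 43.1 to 53.3 in ISch and 47.7 to 50.7 in FIDch, with 1 of 4 tested genes called higher in FID than in IS and 2 called lower in FIDch than in FID. Of these 4 genes, 3 had a log2 fold change above 0 in FID vs. IS (median 0.24) and 2 in FIDch vs. FID (median -0.17). Most of this sum was Cacna2d2, a calcium channel subunit with a mean of 48.4 CPM in FID and 38.0 in FIDch. The defining markers Lhx1 and Lhx5 had at most 3 counts in any female library, too few to compare the groups. Septum and hypothalamus markers summed to 83.2 to 96.3 CPM in FID and 69.1 to 78.5 in FIDch. They summed to 81.2 to 93.0 CPM in IS and 76.5 to 89.3 in ISch. Of their tested genes, 1 of 5 was above 0 in FID vs. IS and 1 of 4 in FIDch vs. FID. Striatum markers summed to 198 to 206 CPM in FID and 193 to 206 in FIDch. Of their 10 tested genes, 8 were above 0 in FID vs. IS and 3 in FIDch vs. FID. The part of the genes of these lists in the Slc32a1 and Lhx6 results was not tested.

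**Figure D2:**
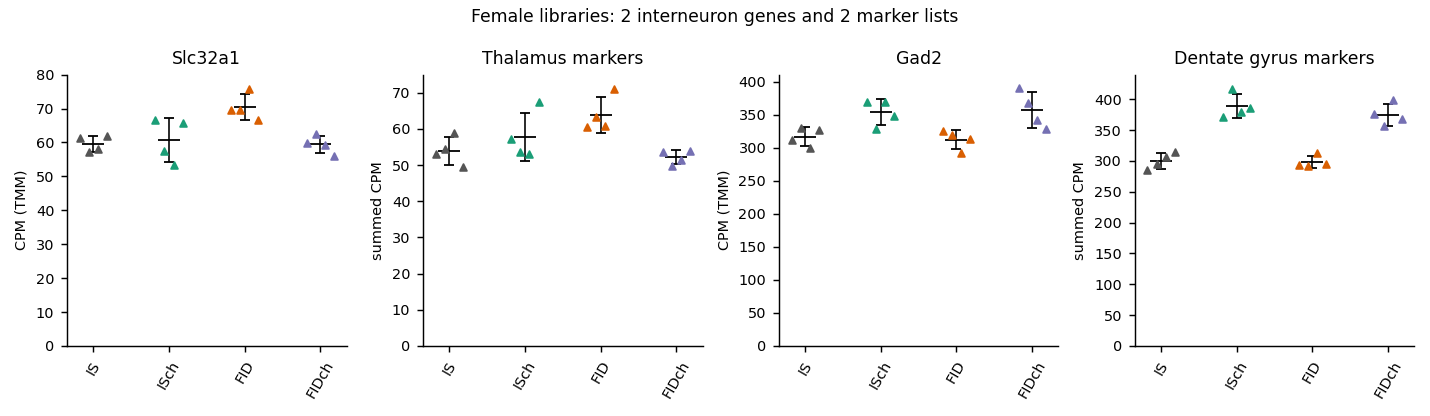
Female libraries by diet group, with CPM of Slc32a1 and Gad2 and the summed CPM of the thalamus and dentate gyrus marker lists on vertical axes from 0; bars are the mean and SD (n = 4). Slc32a1 and the thalamus list were highest in FID, and Gad2 and the dentate gyrus list were higher in ISch and FIDch.

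Gad2 followed choline in females, by less than the limit on the fold change. Its IS libraries had 312, 329.8, 299.9 and 326 CPM and its FID libraries had 326, 319, 292 and 312 CPM. Its ISch libraries had 369.6, 328, 369 and 347 CPM and its FIDch libraries had 390.0, 368, 341 and 329 CPM. Of the 8 libraries with choline, 6 stood above all 8 libraries without it, and the lowest library of ISch and that of FIDch lay just under the highest IS library. The order of the means was FIDch (357 ± 27.4 CPM, SD, n = 4), ISch (354 ± 19.6), IS (317 ± 13.7) and FID (312 ± 14.8), in which FIDch and ISch lay within their spread, as did IS and FID.

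The log2 fold change of Gad2 was 0.15 (SE 0.050) in ISch vs. IS, 0.17 (SE 0.060) in FIDch vs. IS and 0.19 (SE 0.061) in FIDch vs. FID, where the groups did not overlap. The first 2 of these share the IS libraries. The unadjusted p was 0.00980, 0.0156 and 0.0102, and the adjusted p was 0.149, 0.255 and 0.138 in edgeR, so that none was called. In FIDch vs. FID the gene passed the criterion when FIDch replicate 4 was left out (0.23, adjusted p 0.0235), and also without FIDch replicate 3, FID replicate 1 or FID replicate 2, at 0.20 to 0.21. No member was called in female ISch vs. IS or FIDch vs. IS by edgeR or by DESeq2, and 1 member, Gad2, had an unadjusted p under 0.05 in each. Of all genes, 10.3% of 14466 were called in ISch vs. IS and 8.98% of 14662 in FIDch vs. IS, and 16.3% and 12.9% had an unadjusted p under 0.05. Leaving out ISch replicate 1 gave 2 calls in ISch vs. IS (Calb2 and Lhx6), and leaving out IS replicate 3 or FIDch replicate 4 gave 1 call in FIDch vs. IS (Lhx6 and Gad2).

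The dentate gyrus list moved with Gad2. It summed to 372 to 417 CPM in female ISch and 356 to 399 CPM in FIDch, against 285 to 315 in IS and 291 to 313 in FID, and the libraries with and without choline did not overlap. Of its 6 tested genes, 5 were called higher in ISch vs. IS, 4 in FIDch vs. IS and 2 in FIDch vs. FID. Prox1, a transcription factor of granule cells that is also found in interneurons of the caudal ganglionic eminence, rose by 0.39 (SE 0.074) on the log2 scale in ISch vs. IS and by 0.39 (SE 0.052) in FIDch vs. FID, with adjusted p of 0.0227 and 0.00559 in edgeR. The part of these genes in the Gad2 result was not tested.

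In males the Gad2 libraries with choline were not above the others. The means were 345 ± 9.29 CPM in FID, 325 ± 15 in IS, 318 ± 26.5 in ISch and 316 ± 25.1 in FIDch, and all groups overlapped. The difference in the log2 fold change between males and females was -0.22 (SE 0.091) for FIDch vs. IS, with an unadjusted p of 0.0296 and an adjusted p of 0.299 in edgeR, and -0.18 (SE 0.084) for ISch vs. IS, with an adjusted p of 0.304. The first was called at the criterion and the second was not, although without male IS replicate 1 it was (-0.21). The call for FIDch vs. IS was lost without any of 7 single libraries (male IS replicate 3 or 4, male FIDch replicate 1, female IS replicate 1 or 3, or female FIDch replicate 1 or 2), at -0.17 to -0.21.

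Gad1 did not share these differences. Its group means were between 279 and 310.0 CPM in females and between 297 and 305 CPM in males, and the log2 fold changes in the 10 pairs of diet groups ran from -0.11 to 0.13 with no unadjusted p under 0.05. The ratio of Gad2 to Gad1 counts within a library needs no scaling between libraries, although its absolute value depends on gene length. It was 1.28 ± 0.12 (SD, n = 4) in female ISch, 1.17 ± 0.035 in FIDch, 1.06 ± 0.066 in IS and 1.01 ± 0.042 in FID. Both genes entered the ISch ratio, since the log2 fold change in ISch vs. IS was -0.11 for Gad1 and 0.15 for Gad2. ISch replicates 2, 3 and 4, with low numbers in their names, had the lowest Gad1 of the females (250 to 270 CPM). Their ratios were 1.23 to 1.39, while ISch replicate 1 had 1.13, as had the highest IS library. Every female FIDch library had a higher ratio than every FID library, with a 2-sided exact permutation p of 0.029, the smallest that 4 against 4 can give, and 0.29 after adjustment over the 20 comparisons of 2 ratios that were made. The ratio of ISch and that of FIDch to IS each had an exact permutation p of 0.057. In males the ratio was 1.17 ± 0.12 in FID and 1.06 to 1.07 in the other groups, and the exact permutation p was 0.23 or more. Slc32a1 amounted to 22.9 ± 2.76% of the Gad1 counts in female FID and 19.5 ± 0.96% in FIDch (exact permutation p 0.029, 0.29 adjusted). These ratios were chosen after the values of the genes had been seen.

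**Figure D3:**
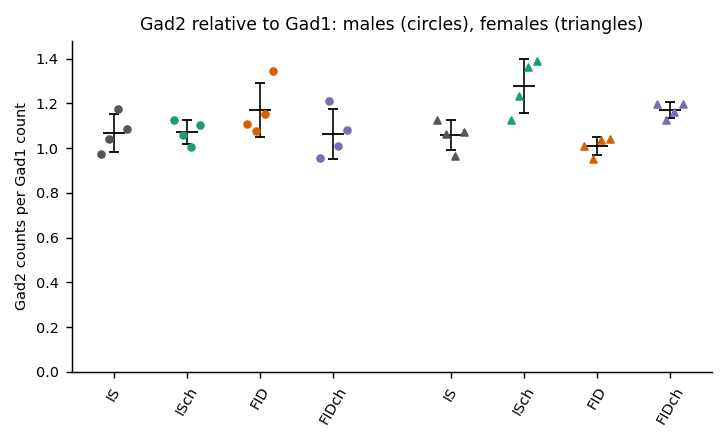
Gad2 counts per Gad1 count in each library (vertical axis, from 0) by diet group, males as circles and females as triangles, with bars for the mean and SD (n = 4). The female means were 1.28 in ISch and 1.17 in FIDch against 1.06 in IS and 1.01 in FID, and the male means lay between 1.06 and 1.17.

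The log2 fold changes of Slc32a1 and Pvalb in FID vs. IS had opposite signs in males and females, that is in the 2 batches. For Slc32a1 the log2 fold change of FID vs. IS was -0.14 (SE 0.11, unadjusted p 0.220) in males and 0.24 in females, a difference of -0.36 (SE 0.13) with an unadjusted p of 0.00952 and an adjusted p of 0.470 in edgeR. Male FID replicate 4, the library with 404 CPM of choroid plexus markers, had the lowest male Slc32a1 (55.5 CPM, against 65.9 to 74.9 CPM in the other male FID libraries). For Pvalb the log2 fold change was -0.23 (SE 0.11, unadjusted p 0.0639) in males and 0.15 in females, a difference of -0.36 (SE 0.13) with an unadjusted p of 0.00972 and an adjusted p of 0.471. Male FID libraries had 30.1, 33.9, 31.4 and 34.2 CPM of Pvalb and male IS libraries had 46.1, 36.4, 31.8 and 36.5 CPM, and the groups overlapped through IS replicate 3. These were 2 members called of 8, where 7.64% of 15138 genes were called, and both kept the criterion in 20 alternative fits, while neither was called with the adjusted p as the criterion. No member was called in male FID vs. IS itself by edgeR or DESeq2, and none had an unadjusted p under 0.05, while 4.62% of 13851 genes were called and 5.68% had an unadjusted p under 0.05. That count of members became 3 without male IS replicate 3 (Pvalb, Lhx6 and Erbb4) and 1 without male IS replicate 1 (Calb2), FID replicate 2 (Reln) or FID replicate 4 (Lhx6). The share of all genes called in these fits is not given beside it.

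Choline and former iron deficiency were also tested together, as the difference between the log2 fold changes of choline in formerly iron-deficient and in iron-sufficient rats. For Slc32a1 this difference was -0.27 (SE 0.093) in females, with an unadjusted p of 0.00918 and an adjusted p of 0.397 in edgeR, and 0.27 (SE 0.13) in males, with 0.0436 and 0.308. The female value was the only one of 8 members called, against 7.33% of 14975 genes. It kept the criterion in 20 alternative fits and was not called with the adjusted p as the criterion. None of these fits set apart the numbered name series of the female choline libraries, which nearly coincided with FIDch against ISch. Without female ISch replicate 1, Calb2 was called as well (2 members). In males 2 members were called, Slc32a1 and Erbb4 (-0.67, SE 0.31, adjusted p 0.310), against 14.4% of 14314 genes. The male Slc32a1 value kept the criterion in 5 of 16 fits that each left out a library, with values from 0.20 to 0.34 over the 16, and the male Erbb4 value in 7 of 16, with values from -0.86 to -0.46. Without the 3 male libraries whose names have another form, ISch replicates 1 and 2 and FIDch replicate 2, neither was called (0.25 and -0.59). In the male interaction no member was called without ISch replicate 1, FID replicate 1, 3 or 4, or FIDch replicate 1 or 3, and 1 member was called without IS replicate 1, 2 or 4, ISch replicate 2 or 3, or FIDch replicate 4.

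Calb2 differed between male FIDch and FID rats. FID libraries had 16.5, 16.0, 15.8 and 15.4 CPM and FIDch libraries had 13.9, 12.4, 13.2 and 13.6 CPM, and the groups did not overlap. Calb2 fell by 0.26 (SE 0.092) on the log2 scale, with an unadjusted p of 0.0143 and an adjusted p of 0.173 in edgeR. It was the only member of 8 called, where 13% of 13945 genes were called. DESeq2 and the fit of all 4 male groups together called none. A second member was called without FID replicate 2 (Slc32a1), FIDch replicate 2 (Pvalb) or FIDch replicate 4 (Erbb4). Male IS libraries spanned 10.9 to 17.6 CPM of Calb2, which covered both of these groups, and ISch libraries spanned 12.7 to 16.8 CPM and overlapped both. In females the means were 13.5 ± 1.72 CPM in IS, 13.1 ± 2.1 in FIDch, 12.9 ± 0.42 in FID and 10.6 ± 2.93 in ISch, and all groups overlapped.

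Lhx6 was lowest in the IS group of males and in the choline groups of females. The male means were 4.80 ± 1.28 CPM in FIDch, 4.64 ± 0.74 in FID, 4.41 ± 0.90 in ISch and 3.39 ± 0.92 in IS, and all male groups overlapped. The female means were 4.21 ± 0.74 CPM in FID, 3.41 ± 0.49 in IS, 2.77 ± 0.44 in FIDch and 2.60 ± 0.87 in ISch, and only FID and FIDch were apart. Its log2 fold change of FIDch vs. IS was 0.45 (SE 0.25) in males and -0.30 (SE 0.17) in females, a difference of 0.75 (SE 0.30) with an unadjusted p of 0.0231 and an adjusted p of 0.278 in edgeR. That of ISch vs. IS was 0.39 (SE 0.23) in males and -0.39 (SE 0.23) in females, a difference of 0.79 (SE 0.34) with an unadjusted p of 0.0332 and an adjusted p of 0.272. Lhx6 and Gad2 were the 2 members called for FIDch vs. IS, against 12.9% of 15177 genes, and Lhx6 alone was called for ISch vs. IS, against 14.2% of 15141 genes. The call for ISch vs. IS was lost in 9 of 16 fits without a single library (0.64 to 0.76), namely without male IS replicate 1 or 2, male ISch replicate 2 or 3, female IS replicate 1, 2 or 4, or female ISch replicate 3 or 4. That comparison gave 2 calls without male IS replicate 3 or 4 or female IS replicate 3 (Lhx6 and Erbb4), or without male ISch replicate 4 or female ISch replicate 2 (Lhx6 and Gad2), and 3 without female ISch replicate 1 (Calb2, Lhx6 and Erbb4). The call for FIDch vs. IS was lost without male IS replicate 2 (0.67) or male FIDch replicate 2 (0.61).

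The Erbb4 result depended on single libraries. Male IS libraries had 10.8, 18.4, 24.8 and 23.6 CPM and male ISch libraries had 30.7, 28.9, 23.0 and 24.2 CPM, with IS replicate 1, which also stood apart over all genes, far below the rest. Erbb4 rose in ISch by 0.47 (SE 0.20) on the log2 scale, with an unadjusted p of 0.0368 and an adjusted p of 0.463 in edgeR. It was the only member of 8 called, where 8.06% of 13956 genes were called. The log2 fold change was 0.26 and not called without IS replicate 1, and the call was also lost without IS replicate 2 (0.45), ISch replicate 1 (0.39), ISch replicate 2 (0.43) or both of these ISch libraries (0.29). Without IS replicate 3 the called members were Reln, Lhx6 and Erbb4 (3 members), and without IS replicate 4 or ISch replicate 3 they were Reln and Erbb4 (2 members). Reln was 0.18 (SE 0.080) higher in this comparison, with an unadjusted p of 0.0473 and an adjusted p of 0.472 in edgeR. Female Erbb4 means were 27.5 ± 4.64 CPM in FID, 25.7 ± 4.64 in IS, 23.2 ± 6.77 in ISch and 20.9 ± 6.99 in FIDch, where FIDch replicate 4 had 10.8 CPM and the other 3 FIDch libraries 22.7 to 26.9 CPM.

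Reln had similar means in the female groups, with 133 ± 18.9 CPM in ISch, 130.2 ± 15.8 in IS, 128 ± 16.7 in FID and 117 ± 17.1 in FIDch. In males it was 98.1 ± 6.63 CPM in ISch, 97.0 ± 19.3 in FIDch, 94.8 ± 14.9 in FID and 86.9 ± 8.99 in IS. Within each sex all groups overlapped. Pvalb in females was 43.8 ± 2.31 CPM in FID, 40.5 ± 2.84 in ISch, 40.0 ± 4.53 in FIDch and 39.4 ± 2.62 in IS, and in males 37.7 ± 6.0 in IS, 36.8 ± 4.31 in ISch, 36.4 ± 5.36 in FIDch and 32.4 ± 2.01 in FID. Neighbours in these orders overlapped in every case.

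In the remaining comparisons edgeR and DESeq2 called none of the 8 members. In male FIDch vs. IS no member had an unadjusted p under 0.05 (7.89% of 13693 genes had, and 6.12% were called), and Lhx6 was called without IS replicate 3 or FIDch replicate 3 (1 member). In male FIDch vs. ISch only Slc32a1 had an unadjusted p under 0.05, at 0.13 (SE 0.054) with an adjusted p of 0.322 in edgeR, against 13.6% of 13958 genes with such a p and 8.12% called. Erbb4 was called there without FIDch replicate 2 or 4, and Calb2 without both ISch libraries with names of another form (1 member each). In female FIDch vs. ISch no member had an unadjusted p under 0.05 (7.93% of 14521 genes had, and 4.57% were called), and Gad1 was called without ISch replicate 1 (1 member).

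**Figure D4:**
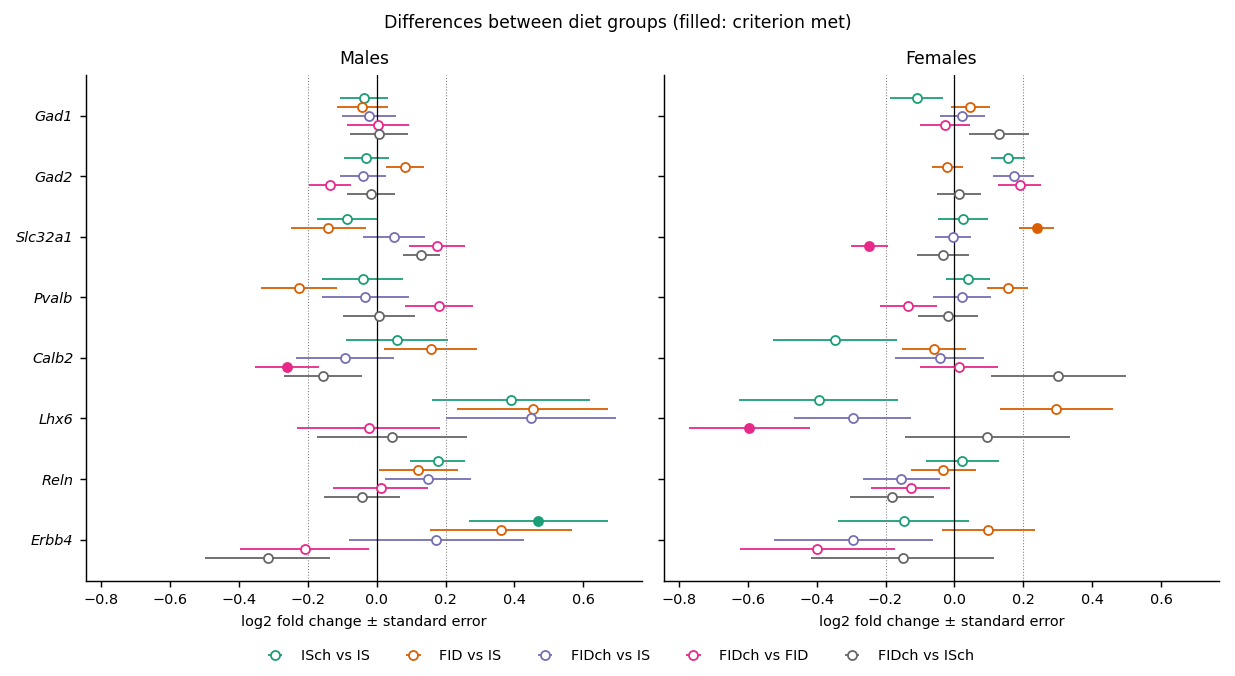
Log2 fold changes of the members (horizontal axis, edgeR, with bars of 1 standard error) in 5 pairs of diet groups, males left and females right; filled points met the criterion and dotted lines mark its limits of 0.2 in either direction. Filled points are Erbb4 and Calb2 in males and Slc32a1 (in 2 comparisons) and Lhx6 in females.

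Genes with the profile most like a member were found over 13861 genes in all 32 libraries, as the smallest RMS difference of log2 CPM after the mean of each sex was removed. The libraries share depth and normalization, and the values are descriptions. For Gad1 the nearest was RGD1560065 (RMS difference 0.084), where the RMS of Gad1 itself was 0.12. For Reln the 2 nearest were Plxna2 (0.093), a semaphorin receptor, and Srcap (0.10), against 0.19 for Reln itself. For Erbb4 the 2 nearest were Myo5a (0.13), a motor protein, and Tmem245 (0.14), against 0.39 for Erbb4. Myo5a and Erbb4 were both lowest in male IS replicate 1 and female FIDch replicate 4, the libraries that lay farthest from the mean of their sex over all genes. For Gad2 the nearest was Ddx5 (0.071), against 0.10 for Gad2 itself. For Slc32a1 the 2 nearest were Zfp385a (0.079) and Cbarp (0.083), against 0.13 for Slc32a1. For Pvalb they were Hint1 (0.097) and Dpcd (0.099), against 0.15 for Pvalb. For Calb2 (Zcchc18 and Wdr6, both 0.17) and Lhx6 (Scn3a, 0.26, and Adamts12, 0.27) the member's own RMS was 0.23 and 0.36. The nearest gene was little closer than the member's own RMS for Calb2 and Lhx6, and not much more so for Gad1 and Gad2.

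**Figure D5:**
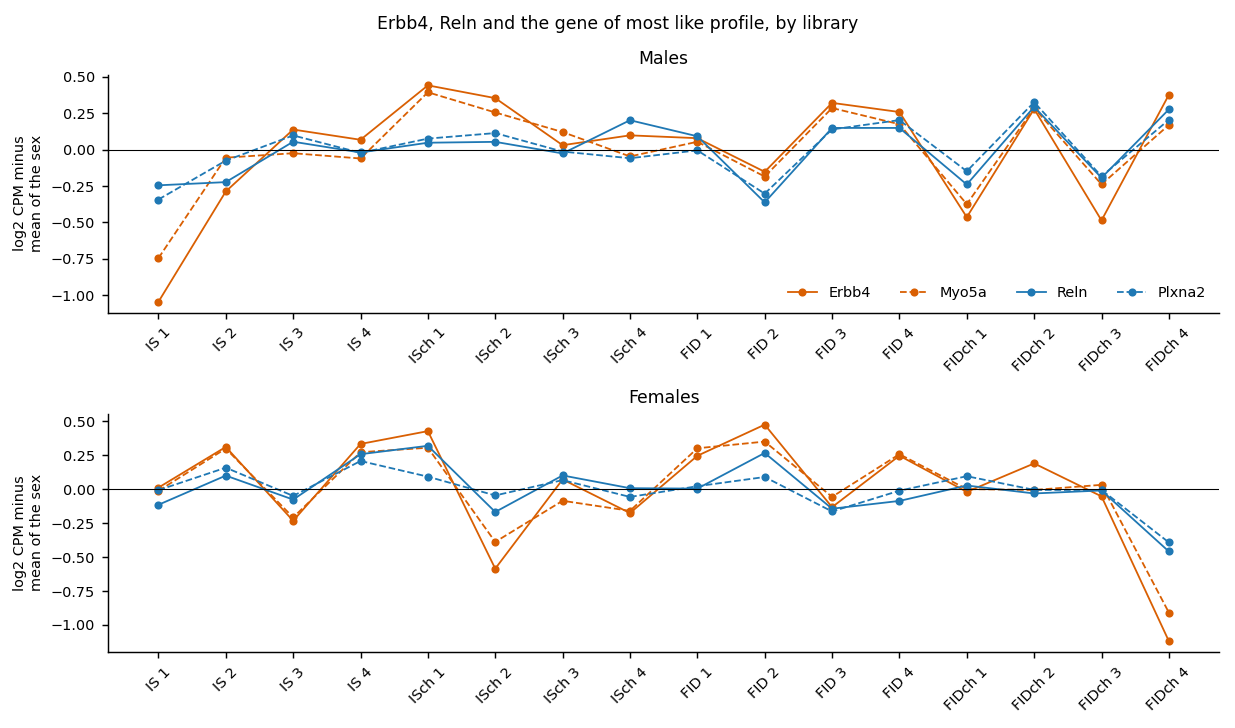
Log2 CPM minus the mean of the sex (vertical axes) of Erbb4, Reln and the gene with the most like profile of each (Myo5a and Plxna2, dashed) in the 16 male and 16 female libraries. The lowest Erbb4 points are male IS replicate 1 and female FIDch replicate 4, and the lowest Reln points are male FID replicate 2 and female FIDch replicate 4.

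Other genes of the same pathways were counted from lists of GABAergic genes, and these counts stand against 4.62% to 13% of all genes called in the male pairs of diet groups and 4.57% to 12.7% in the female pairs. Of 24 other markers of interneuron subtypes, 21 were tested in each comparison. In male FIDch vs. FID, 5 were lower and 1 was higher: Nxph1 fell by 0.35 (SE 0.080, adjusted p 0.0519 in edgeR), Chrm2, a muscarinic receptor, by 0.40, and Crhbp by 0.38, with Vip and Calb1 also lower, while Tac3, the precursor of neurokinin B, rose by 0.44 (SE 0.14). In the other male comparisons 1 rose and 3 fell in ISch vs. IS, 1 rose in FID vs. IS, 2 fell in FIDch vs. IS, and 2 rose and 2 fell in FIDch vs. ISch. Htr3a, a serotonin receptor of caudal eminence interneurons, fell by 0.57 (SE 0.15, adjusted p 0.267) in male ISch vs. IS.

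In females, 5 of the 21 subtype markers rose and 3 fell in ISch vs. IS, 1 rose in FID vs. IS, 4 rose in FIDch vs. IS, 2 rose and 1 fell in FIDch vs. FID, and none was called in FIDch vs. ISch. Sncg, which encodes gamma-synuclein, rose by 3.72 (SE 0.27) in ISch vs. IS and by 3.60 (SE 0.60) in FIDch vs. FID, with adjusted p of 5.61e-05 and 0.0145 in edgeR. Calb1, the calbindin gene, which granule cells also express, rose by 0.34 (SE 0.078, adjusted p 0.0490) in ISch vs. IS. Cck, which marks a class of basket cells and is also made by other neurons, rose by 0.24 (SE 0.075, adjusted p 0.243) in FID vs. IS. The median log2 fold change of the 21 genes was between -0.06 and 0.06 in the 5 female pairs and between -0.11 and 0.01 in the 5 male pairs, where the median of all genes lay between -0.01 and 0.01.

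Of 14 tested transcription factors of the GABAergic lineage, 1 was lower in males in each of ISch vs. IS (Npas1), FIDch vs. FID (Sox6) and FIDch vs. ISch (Satb1), and none was called in the other male pairs. In females 2 of 14 rose in FID vs. IS and 2 of 14 fell in FIDch vs. FID. Of these, Sp9 rose by 0.87 (SE 0.37) on the log2 scale in the former and fell by 1.40 (SE 0.41) in the latter. Both comparisons share the FID libraries, and the adjusted p of Sp9 was 0.404 and 0.107 in this order in edgeR. Prox1 was the 1 factor higher in each of ISch vs. IS, FIDch vs. IS and FIDch vs. FID.

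Among 8 genes of GABA uptake and breakdown, Abat, the transaminase that degrades GABA, fell in all 3 female comparisons of a choline group with IS or FID: by 0.22 (SE 0.059) in ISch vs. IS, 0.32 (SE 0.088) in FIDch vs. IS and 0.31 (SE 0.089) in FIDch vs. FID, with adjusted p of 0.0932, 0.151 and 0.0964 in edgeR. These comparisons share libraries. The glutamine transporter Slc38a1 rose by 0.26 (SE 0.099) in male FID vs. IS and fell by 0.28 (SE 0.084) in male FIDch vs. FID, and Slc6a13 rose by 0.43 (SE 0.15) in female ISch vs. IS. No other gene of this list was called in a pair of diet groups.

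Ligands, partners and targets of the remaining members were counted in the same 10 pairs of diet groups. Of the neuregulin and ErbB list, 7 or 8 genes were tested a pair, and those called in a pair were Erbb3 (0.25, SE 0.11) in male ISch vs. IS, Nrg1, a ligand of Erbb4, in male FID vs. IS (0.64, SE 0.21, adjusted p 0.786 in edgeR) and Bace1, a protease that cleaves neuregulin, in female FIDch vs. FID (-0.22, SE 0.074). Of 8 genes of reelin signalling, 3 were called in a pair. Crk rose in male ISch vs. IS (0.21, SE 0.094), Pafah1b1 fell in male FIDch vs. FID (-0.23, SE 0.048, adjusted p 0.0418) and Dab1, the adaptor that reelin receptors act through, rose in female ISch vs. IS (0.21, SE 0.044, adjusted p 0.0300). Of a list of matrix genes drawn up for the perineuronal net around parvalbumin cells, 11 genes were tested in males and 10 in females. Tnc (tenascin-C) rose by 0.66 (SE 0.088, adjusted p 0.00837 in edgeR) in female FIDch vs. IS and by 0.55 (SE 0.10, adjusted p 0.0260) in female FIDch vs. FID. In male FIDch vs. FID the link proteins Hapln2 and Hapln4 rose, by 0.36 (SE 0.12) and 0.21 (SE 0.060), and Hapln1 fell by 0.25 (SE 0.078). Hapln2 fell by 0.28 (SE 0.13) in male FID vs. IS and Hapln1 by 0.26 (SE 0.10) in male FIDch vs. IS, and Tnc rose by 0.24 (SE 0.085) in female ISch vs. IS and by 0.41 (SE 0.089) in female FIDch vs. ISch. Most oligodendrocyte markers had the sign of Hapln2: 6 of 8 were above 0 in male FIDch vs. FID and 1 of 8 in male FID vs. IS. Which cells the Hapln2 differences come from was not tested.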

How the data were processed

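Hippocampal RNA of 32 rats was sequenced as paired reads. The authors trimmed reads with Trimmomatic, checked them with FastQC, aligned them to Rnor_6.0 with HISAT2 and counted them per gene with featureCounts (Subread), per the submitters' notes, and deposited raw counts without normalization or a filter. The annotation version, the strand setting and the treatment of reads with several matches are not given in the sources used here, so that genes overlapping a member cannot be told apart from it. The kit named in the labels does not mark strand.

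The count tables went into edgeR 4.0.16 under R 4.3.3 (TMM, filterByExpr, glmQLFit, glmQLFTest). The study fitted each pair apart and compared FID, FIDch and ISch males with IS. Here 5 pairs of diet groups were fitted in this way in each sex, and calls used the criterion of the study, an absolute log2 fold change over 0.2 with an unadjusted p under 0.05. Interactions were fitted on 16 libraries. Fits were run on all genes, and p-values were Benjamini-Hochberg adjusted over all genes tested. Log2 CPM for the likeness search used a prior count of 2. Ratios were compared by 2-sided exact permutation tests. Simulated counts with known changes were used to test the scripts.

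Totals were 3515806 to 9517503 counts per male and 18439999 to 26616318 per female library. A count of 0 allows 3 counts at 95% confidence (up to 0.853 CPM in males and 0.163 CPM in females), which covers only the error of counting. Replicates of a group, compared in 48 pairs, had a chi-square per gene of 2.02 to 25.2, above counting noise in each pair. Nothing says that female rats came from separate litters, and p-values then measure only the spread between these samples.

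Groups followed the labels. Alternatives were RLE factors, all genes with at least 1 count, DESeq2 1.42.0, a joint fit of the 4 diet groups, a replicate block, the adjusted p as criterion, and each library left out in turn. The 8 members are all named. From the other 20 lists, counts are given and at most 4 called genes a list and comparison by size of change. Some genes that these rules would name are not reported here. The members, lists and tests were chosen with earlier results of these data known. Upstream sequences came from RefSeq (GRCr8).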

Additional observations from a re-analysis of the deposited data

Results flagged for a closer look

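In 2 of 64 groups of 4 libraries (8 members, 2 sexes, 4 diets), a library's gap to the nearest other exceeded Dixon's 95% critical share of the group's range, and chance gives about 1 in 20 groups. Both were Reln. Male FID replicate 2 had 72.6 CPM against 99.5 to 103 CPM in the other 3 libraries, and female FIDch replicate 4 had 91.5 CPM against 123 to 128 CPM. Female FIDch replicate 4 also had the lowest Erbb4 of its sex and lay farthest from the mean of its sex over all genes.

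Effects under the same contrast differed between groups at the criterion in 8 cases, each with an adjusted p over 0.25 in edgeR. Of all genes, 14.4% were called in the male interaction and 7.33% in the female one. Between the sexes, 14.2% were called for ISch, 7.64% for FID and 12.9% for FIDch, each vs. IS. In each of these tests 1 or 2 of the 8 members were called. The choline effect differed with iron status for Slc32a1 in males (0.27) and, in the opposite direction, in females (-0.27), and for Erbb4 in males (-0.67). Effects differed between males and females, that is between batches, for Slc32a1 (-0.36) and Pvalb (-0.36) in FID vs. IS, for Lhx6 in ISch vs. IS (0.79) and FIDch vs. IS (0.75), and for Gad2 in FIDch vs. IS (-0.22).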

How the results depend on the processing

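Of 88 counts of called members under alternatives other than leaving out a library, 69 stayed within 1.5 times the reported count. With an adjusted p under 0.05 in edgeR as the criterion, 1 member (Slc32a1) was called in female FIDch vs. FID and 0 in male ISch vs. IS, male FIDch vs. FID, female FID vs. IS, both interactions and the 3 comparisons between the sexes. DESeq2 and the 4 male groups in one fit gave 0 in male FIDch vs. FID. The 4 female groups in one fit gave 1 in female ISch vs. IS (Calb2). Testing all genes with at least 1 count gave 1 in male FID vs. IS and 1 in male FIDch vs. ISch (both Erbb4) and 2 in ISch vs. IS between the sexes (Lhx6, Erbb4). Without male ISch replicates 1 and 2 the counts were 0 in ISch vs. IS and 1 in FIDch vs. ISch (Calb2). Leaving out male FIDch replicate 2 as well, chosen after seeing the data, kept 2 in the male interaction, but these were Pvalb and Calb2. With 1 library left out, the count of called members ranged from 0 to 3 in male ISch vs. IS, male FID vs. IS and ISch vs. IS between the sexes; from 0 to 2 in the male interaction and female ISch vs. IS; from 0 to 1 in male FIDch vs. IS, male FIDch vs. ISch, female FIDch vs. IS and female FIDch vs. ISch; from 1 to 2 in male FIDch vs. FID, female FID vs. IS, the female interaction and FIDch vs. IS between the sexes; and from 2 to 3 in female FIDch vs. FID and FID vs. IS between the sexes. Values of single members were followed only for the 21 results with an unadjusted p under 0.05 in the reported edgeR fit. Of their 341 values under alternatives, 280 kept their side of the criterion and 0 changed sign. The alternatives reuse most of the same libraries, so the absence of a changed sign says little, and it does not cover the other results. The share of all genes called in each alternative fit is not given here, so these counts are not read as results about the members. The cause of these changes was not tested.

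Replicate numbers shared by the groups did not pair the samples: over 24 pairs of groups and numbers a sex, deviations from the group means correlated at -0.15 to 0.22 in males and -0.13 to 0.15 in females, and a library correlated best with its own number in 9 and 10 of 48 checks. With the replicate number as a block, 1 member (Erbb4) was called in male FID vs. IS and 1 (Erbb4) in the male interaction, and the other counts of called members did not change. The male depth limits Lhx6 most, with 19 to 47 counts a library.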
